A study of Mus musculus with 5 samples.

Results

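NK cells and innate lymphoid cells of the mouse mammary gland were taken here as lymphoid barcodes that carry an NK or ILC2 gene and no T cell receptor complex RNA. A barcode is the tag of one droplet, and it usually stands for one cell. A barcode was a member if it held at least 300 genes and at most 20% mitochondrial UMIs (unique molecular identifiers, each standing for one captured RNA molecule). It also had to hold a UMI of Ptprc (the leukocyte antigen CD45), Il2rb or Il7r (receptor chains for lymphocyte cytokines), and at least 1 UMI of Ncr1, Klrb1c, Klre1, Eomes, Gzma or Il1rl1. It had to lack Cd3d, Cd3e and Cd3g (the CD3 chains of T cells) and to hold at most 1 UMI over C1qa, C1qb and C1qc (macrophage complement genes). It also had to lack Cpa3 (mast cells), Epcam (epithelium), Pecam1 (endothelium) and Dcn (fibroblasts). The members were thus chosen by their measured UMI counts of these genes. This rule found 139 members among 33551 kept barcodes, a share of 0.414%.

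The barcodes come from 5 droplet libraries read at the 3' end of transcripts, 4 of mammary gland and 1 of a mammary tumor. All mice carried Trp53 flox/flox and Krt14cre, a Cre recombinase driven by the keratin 14 promoter, which is active in basal epithelium and its lineage and not in lymphocytes as a rule. BPK mice were in addition Brca1 wt/flox, and PK mice were Brca1 wt/wt. The groups were a BPK tumor that arose after 24 injections of 4NQO into the ducts (1 library), BPK glands after 12 injections of 4NQO (2 libraries), a PK gland after 12 injections of 4NQO (1 library) and a BPK gland after 12 injections of the PBS and PEG vehicle (1 library). 4NQO is a quinoline carcinogen that forms bulky DNA adducts. No group without the floxed Trp53 allele or without Cre was among these libraries. The labels do not say whether the BPK 4NQO libraries came from separate animals, so the spread between them may be technical.

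NK cells are innate lymphocytes that kill stressed or transformed cells by releasing granules of perforin and granzymes. They read their targets through germline-encoded receptors rather than rearranged antigen receptors: activating receptors such as NKp46 signal through adaptor proteins, and inhibitory Ly49 and CD94 family receptors recognise MHC class I. Innate lymphoid cells of the ILC2 type live in tissues, carry the IL-33 receptor ST2, and release type 2 cytokines and amphiregulin, while ILC1 and ILC3 are the tissue counterparts that make interferon gamma and IL-22.

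The marker genes code for NKp46 (Ncr1, an activating receptor), NK1.1 (Klrb1c), a lectin-like receptor (Klre1), the T-box transcription factor of NK cells (Eomes), granzyme A (Gzma) and ST2 (Il1rl1). Start-site windows of 300 bases are shown for Ncr1 and Gzma, of the rule, and for Nkg7 and Xcl1, which the rule does not use. These 4 genes are described in the values that follow. The windows are RefSeq sequences on GRCm38.p6, 5' to 3' on the strand of the gene, with capitals marking the motif letters searched. These were GGTGTGA for T-box factors, for Runx factors the core TGTGGT, and for ETS factors the core GGAAGT, each also as its reverse complement. Ncr1 lies on the plus strand at chr7:4337465-4337764, Gzma on the minus strand at chr13:113100932-113101231, Nkg7 on the plus strand at chr7:43436888-43437187 and Xcl1 on the minus strand at chr1:164935473-164935772.
Ncr1: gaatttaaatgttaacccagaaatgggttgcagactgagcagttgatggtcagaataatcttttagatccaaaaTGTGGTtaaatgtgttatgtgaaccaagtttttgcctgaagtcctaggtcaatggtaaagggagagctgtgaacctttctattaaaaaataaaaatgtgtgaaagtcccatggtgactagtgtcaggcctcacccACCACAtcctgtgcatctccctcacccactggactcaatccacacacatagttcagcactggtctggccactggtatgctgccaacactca
Gzma: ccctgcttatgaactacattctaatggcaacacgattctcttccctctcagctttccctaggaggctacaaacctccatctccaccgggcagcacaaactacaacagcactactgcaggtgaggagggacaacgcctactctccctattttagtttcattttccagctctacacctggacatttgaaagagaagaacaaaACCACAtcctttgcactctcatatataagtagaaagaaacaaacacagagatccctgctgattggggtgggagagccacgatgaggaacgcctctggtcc
Nkg7: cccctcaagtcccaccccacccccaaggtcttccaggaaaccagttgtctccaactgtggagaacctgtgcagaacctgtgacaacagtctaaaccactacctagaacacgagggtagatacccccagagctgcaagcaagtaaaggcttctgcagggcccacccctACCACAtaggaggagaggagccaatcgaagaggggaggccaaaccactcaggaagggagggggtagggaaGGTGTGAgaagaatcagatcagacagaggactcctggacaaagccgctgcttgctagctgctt
Xcl1: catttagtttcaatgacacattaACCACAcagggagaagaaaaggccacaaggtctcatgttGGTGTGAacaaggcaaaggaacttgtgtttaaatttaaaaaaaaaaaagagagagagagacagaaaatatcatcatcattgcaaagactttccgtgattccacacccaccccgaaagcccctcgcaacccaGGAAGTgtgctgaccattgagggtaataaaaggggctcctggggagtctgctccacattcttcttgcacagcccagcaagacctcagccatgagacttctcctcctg

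The Runx letters occurred in 10 of 15 windows of marker and leading genes (66.7%), against 16.8% of all 32851 windows of this length. Ncr1 held them at 2 places, and Gzma, Nkg7 and Xcl1 at 1 each. The T-box letters occurred in 2 of the 15 (13.3%, Nkg7 and Xcl1), against 3.98% of all windows, and the ETS letters in 5 (33.3%), against 23.8%. The 15 genes are those with an entry among 25 looked up, which were chosen for their level in these members, and several are neighbours in one gene cluster on chromosome 6. A match of letters is a description of the sequence and does not show binding.

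Members were rare in every library. In the BPK tumor 2 of 2290 kept barcodes were members, a share of 0.0873% (exact Clopper-Pearson 95% interval 0.0106 to 0.315). BPK 4NQO replicate 1 held 32 of 7475 (0.428%, 0.293 to 0.604) and replicate 2 held 77 of 6960 (1.11%, 0.874 to 1.38). The PK 4NQO gland held 9 of 7438 (0.121%, 0.0553 to 0.230), and the BPK vehicle gland held 19 of 9388 (0.202%, 0.122 to 0.316). Both BPK 4NQO libraries lay above the other 3 libraries, although the interval of replicate 1 touches those of the tumor and the vehicle gland. These intervals cover counting error only, not the spread between animals.

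The BPK 4NQO glands averaged 0.767% ± 0.480 (SD, n = 2), and the replicates lay further apart than replicate 1 and the vehicle gland. Log2 ratios of the share used the mean of the replicates' log2 shares, not the log2 of their mean share. The log2 ratio of the share was 1.77 for BPK 4NQO over BPK vehicle, with 1.08 from replicate 1 alone and 2.45 from replicate 2 alone. It was 2.51 over PK 4NQO, with 1.82 and 3.19 from the same replicates. For the BPK tumor over BPK 4NQO it was -2.98, from 2 member barcodes. These ratios carry no test, because an exact test of 2 libraries against 1 has no outcome with p under 0.05.

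The direction depended on what the members were counted against. Of barcodes with a UMI of Ptprc, the members with Ptprc were 0.976% in the BPK tumor, 9.54% and 4.13% in BPK 4NQO replicates 1 and 2, 7.41% in PK 4NQO and 8.23% in BPK vehicle. On that scale the log2 ratio was -0.39 for BPK 4NQO over BPK vehicle and -0.24 over PK 4NQO, with replicate 1 above both single gland libraries and replicate 2 below both. Barcodes with Ptprc were themselves 8.95%, 3.51%, 24.3%, 1.45% and 1.68% of kept barcodes in the same library order.

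**Figure D1:**
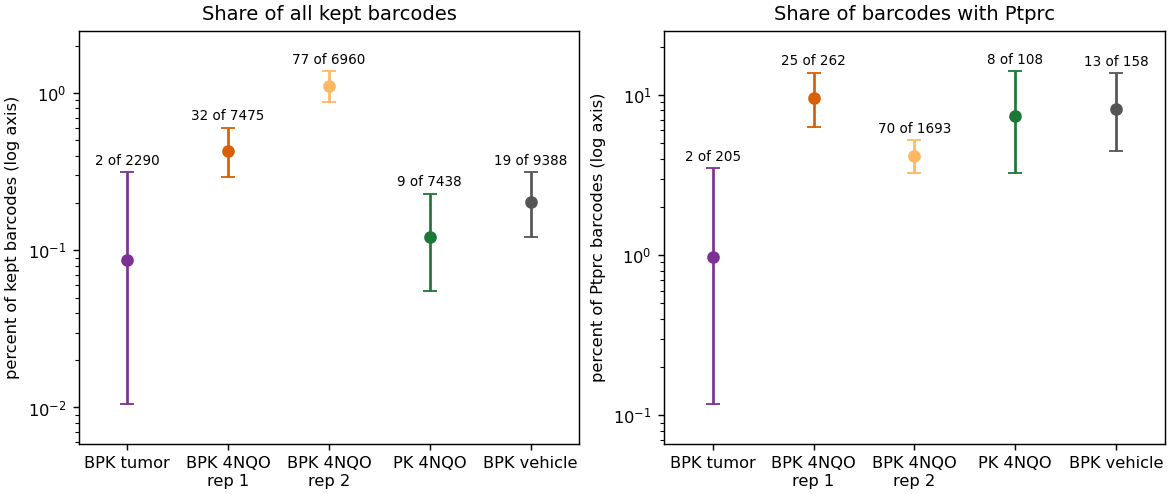
Share of members per library in percent on log axes, of all kept barcodes (left) and of barcodes with a Ptprc UMI (right). Points are shares with exact Clopper-Pearson 95% intervals, labelled with the counts; both BPK 4NQO libraries lie highest on the left, while on the right replicate 2 lies below PK 4NQO and BPK vehicle at 4.13%.

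T cells, taken as barcodes that pass the same filters but hold a CD3 UMI, give a second scale. They numbered 15, 100 and 447 in the BPK tumor and BPK 4NQO replicates 1 and 2, 36 in PK 4NQO and 20 in BPK vehicle. Per member this was 7.5 T cells in the BPK tumor, 3.13 and 5.81 in BPK 4NQO, 4 in PK 4NQO and 1.05 in BPK vehicle. The vehicle gland thus held about as many members as T cells, and each 4NQO library held more T cells than members. Of the 20 vehicle T cells, 10 also held a marker gene of the rule.

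Depth limits how many cells the rule can find. Members were shallow, with a median of 1981.5 UMIs in the BPK tumor, 1011.5 and 992 in BPK 4NQO, 773 in PK 4NQO and 853 in BPK vehicle, against 19533.5, 4295, 2591, 3270 and 4707.5 over all kept barcodes. In all, 72 of 139 members (51.8%) held fewer than 1000 UMIs, and the shallowest held 505, next to the lowest deposited barcode at 500. Member levels below are therefore given as counts per 1e+06 (CPM) of the UMIs summed over the members of a library: 3963 in the BPK tumor, 37335 and 99690 in BPK 4NQO, 17849 in PK 4NQO and 27240 in BPK vehicle. A count of 0 allows up to 3 UMIs, which is 757 CPM in the tumor, 80.4 and 30.1 in BPK 4NQO, 168 in PK 4NQO and 110 in BPK vehicle.

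BPK 4NQO replicate 2 stood apart from the other libraries. It shared 1 or 2 barcode sequences with each of them, whereas the other pairs shared 26 to 107, and no member's barcode occurred in another library. Gm42418, a predicted gene, took 92356 CPM of its members' UMIs, against 252 to 952 CPM in the other libraries, and T cells of the replicate held 57577 CPM. What part this has in the results of replicate 2 was not tested.

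Granzyme A was the most widely detected of the 6 marker genes, with a UMI in 94 of 139 members (67.6%). Ncr1 was detected in 61 (43.9%), Klre1 in 45 (32.4%), Eomes in 42 (30.2%), Klrb1c in 28 (20.1%) and Il1rl1 in 11 (7.91%). These genes chose the members, so their shares are a description. Free RNA can place stray UMIs in any droplet, and among 19848 barcodes with Epcam and no Ptprc the same genes were found in 0.0101% (Klrb1c) to 0.982% (Il1rl1). Over all libraries together Il1rl1 was the marker nearest to these shares, although those barcodes were deeper than the members. Of its 195 barcodes there, 134 were in the tumor (8.38% of 1599, at a median of 29248 UMIs). The share was 0.478% and 1.30% in BPK 4NQO. In PK 4NQO (0.0808%) and BPK vehicle (0.0782%) it equalled that of Klre1. Whether these UMIs are free RNA or expression by the epithelium was not tested. Among the 618 T cells the shares ran from 0.809% for Klrb1c to 12.3% for Eomes.

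**Figure D2:**
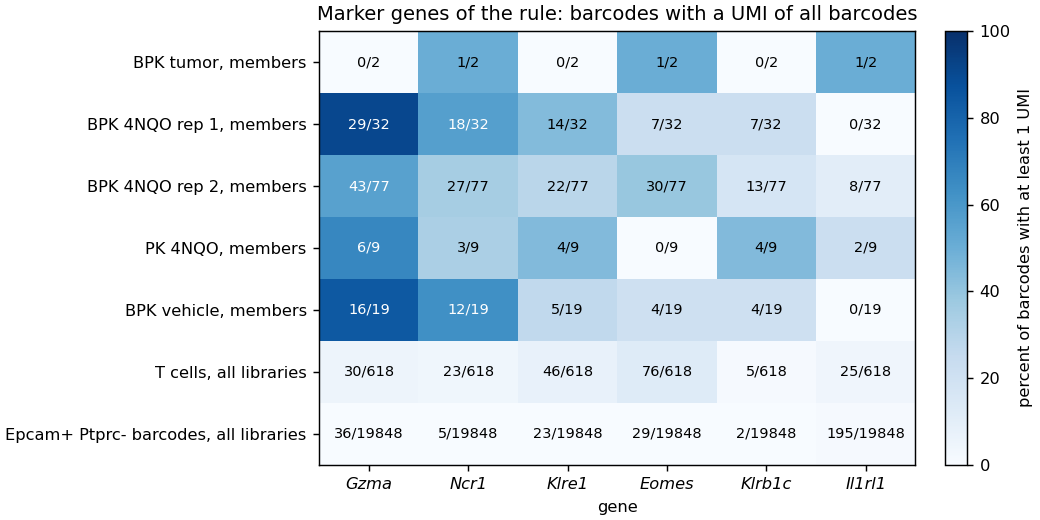
Barcodes with at least 1 UMI of each marker gene of the rule, as counts of all barcodes in a cell and as percent by color, for members of each library, all T cells and all barcodes with Epcam and no Ptprc. Gzma reaches 29 of 32 members in BPK 4NQO replicate 1, and Il1rl1 is found in 0 members of that library and of BPK vehicle.

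Of all members 59 held 1 of the 6 genes, 34 held 2, 31 held 3, 14 held 4 and 1 held 5 or more. Gzma was the sole marker in 25 members, Eomes in 11 and Il1rl1 in 9. The 11 members with Eomes alone were all in BPK 4NQO replicate 2, which also held 20 of the 28 members that passed on 1 marker UMI. At the edge of the rule, 28 members held 1 marker UMI and 17 held 2, while 499 barcodes that met every other condition held none. A single CD3 UMI kept 40 barcodes out, and 7 members held the 1 C1q UMI that the rule allows.

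Granzyme A itself was at 0 of 3963 UMIs in the BPK tumor, 6803 and 1986 CPM in BPK 4NQO replicates 1 and 2, 2185 CPM in PK 4NQO and 6828 CPM in BPK vehicle. Replicate 1 and the vehicle gland were close, though the vehicle gland was at 11716 CPM without its 3 doublets. Replicate 2 and PK 4NQO lay lower, and PK 4NQO was at 4814 CPM without its deepest member and at 7842 CPM with at least 2 marker UMIs per member. Eomes ran the other way in BPK 4NQO, with 214 CPM in replicate 1 and 471 CPM in replicate 2, against 0 in PK 4NQO and 257 CPM in BPK vehicle.

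The label was checked against genes outside the rule. The 128 members with an NK marker and no Il1rl1 held Nkg7 (a granule protein of cytotoxic lymphocytes) in 100 barcodes and Klrk1 (NKG2D, an activating receptor) in 53. Klrd1 (CD94, the partner of NKG2 receptors) was found in 45, Prf1 (perforin) in 19 and Tbx21 (T-bet) in 16. These barcodes carry NK cell genes as labelled, but Nkg7, Klrk1 and Klrd1 are not limited to members. Of 169 barcodes with a CD3 UMI and a marker gene, Nkg7 was found in 128, Klrk1 in 58 and Klrd1 in 40. Whether some members are T cells whose CD3 UMIs were missed was not tested.

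The 9 members with Il1rl1 alone look different: Nkg7 was found in 1, and Klrd1, Prf1 and Tbx21 in 0. Among ILC2 genes Areg (amphiregulin) was found in 6, Icos (a costimulatory receptor) in 4 and Gata3 (the ILC2 transcription factor) in 2. Il5 and Il13 (type 2 cytokines), Il17rb (the IL-25 receptor) and Calca were found in 0. Cd74 (the MHC class II invariant chain) was found in 6 at 12911 CPM and Lyz2 (lysozyme of myeloid cells) in 6 at 2462 CPM, against 2034 and 360 CPM in the members with NK markers alone. Of these UMIs 210 of 257 for Cd74 and 43 of 49 for Lyz2 came from 1 PK 4NQO barcode described below. The innate lymphoid label beyond NK cells thus rests on few UMIs in these barcodes. Il22, Il17a, Il23r and Cxcr5 of the ILC3 list had 0 UMIs in all 139 members, which allows up to 16.1 CPM.

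Among all genes, those with the largest ratio of member level to other kept barcodes were largely receptors and chemokines of NK cells. The 20 leading genes included Klra7 and Klra4 (Ly49 receptors), Klri2, Klrd1, Klrb1a and Klrk1, with Xcl1 and Ccl5 (chemokines that draw dendritic cells and lymphocytes), Ctsw and Cst7 (a protease and a protease inhibitor of cytotoxic granules) and Txk (a lymphocyte kinase). The Ly49 and Klrb1 genes are families of near-identical neighbours on chromosome 6, so reads may be split among copies. Ccl17 also led, but its 155 UMIs all came from that same PK 4NQO barcode. Because the rule chose these barcodes, the ratios carry no test.

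Among chemokines, Ccl5 was the most abundant NK gene of the members. It was at 1009 CPM in the BPK tumor, 21749 and 2749 CPM in BPK 4NQO replicates 1 and 2, 14903 CPM in PK 4NQO and 12151 CPM in BPK vehicle. The PK and vehicle values lay between the BPK 4NQO replicates, but PK 4NQO was at 32836 CPM, above both, without its deepest member. Ccl4, which attracts monocytes and lymphocytes, was at 4542, 3428, 1404, 3866 and 2239 CPM over the libraries named in that order. With all members its range was narrower, and replicate 2 was the lowest library. With at least 2 marker UMIs per member, the tumor was the lowest at 389 CPM, from 1 UMI. Replicate 2 was then at 1196 CPM and PK 4NQO the highest at 12588 CPM. Xcl1 (a ligand for cross-presenting dendritic cells) was at 1262 CPM in the BPK tumor, 1928 and 782 CPM in BPK 4NQO, 224 CPM in PK 4NQO and 1579 CPM in BPK vehicle. Ifng (interferon gamma) was low throughout, at 0, 161, 211, 168 and 36.7 CPM.

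Among granule genes, Nkg7 was at 1009 CPM in the BPK tumor, 5196 and 1053 CPM in BPK 4NQO, 1008 CPM in PK 4NQO and 4552 CPM in BPK vehicle. Replicate 1 and the vehicle gland were the highest, and PK 4NQO was at 2222 CPM without its deepest member. Gzmb (granzyme B) was at 0, 723, 261, 224 and 844 CPM. Prf1 was at 0 in the BPK tumor and PK 4NQO, at 53.6 and 171 CPM in BPK 4NQO and at 110 CPM in BPK vehicle, from 22 UMIs in all. The replicates' values rest on 2 and 17 UMIs, with Poisson 95% intervals of 6.49 to 194 and 99.3 to 273 CPM that overlap. Serpinb9, the inhibitor that shields killer cells from their own granzyme B, was at 0, 509, 782, 112 and 881 CPM.

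Among receptors and adaptors, Tyrobp (DAP12, the adaptor of activating Ly49 receptors) was at 505 CPM in the BPK tumor, 4071 and 1093 CPM in BPK 4NQO, 1849 CPM in PK 4NQO and 2313 CPM in BPK vehicle. Klrd1 was at 0, 1018, 171, 224 and 257 CPM, and the value of replicate 1 was the highest. Klri2, an NK receptor, was detected in 11 members of each BPK 4NQO replicate, with 17 and 13 UMIs. It had 0 UMIs in the tumor, PK 4NQO and BPK vehicle, where 757, 168 and 110 CPM could have gone unseen against 455 and 130 CPM in the BPK 4NQO replicates. The edgeR test did not call it in either comparison (adjusted p 0.564 against PK 4NQO and 0.999 against BPK vehicle).

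**Figure D3:**
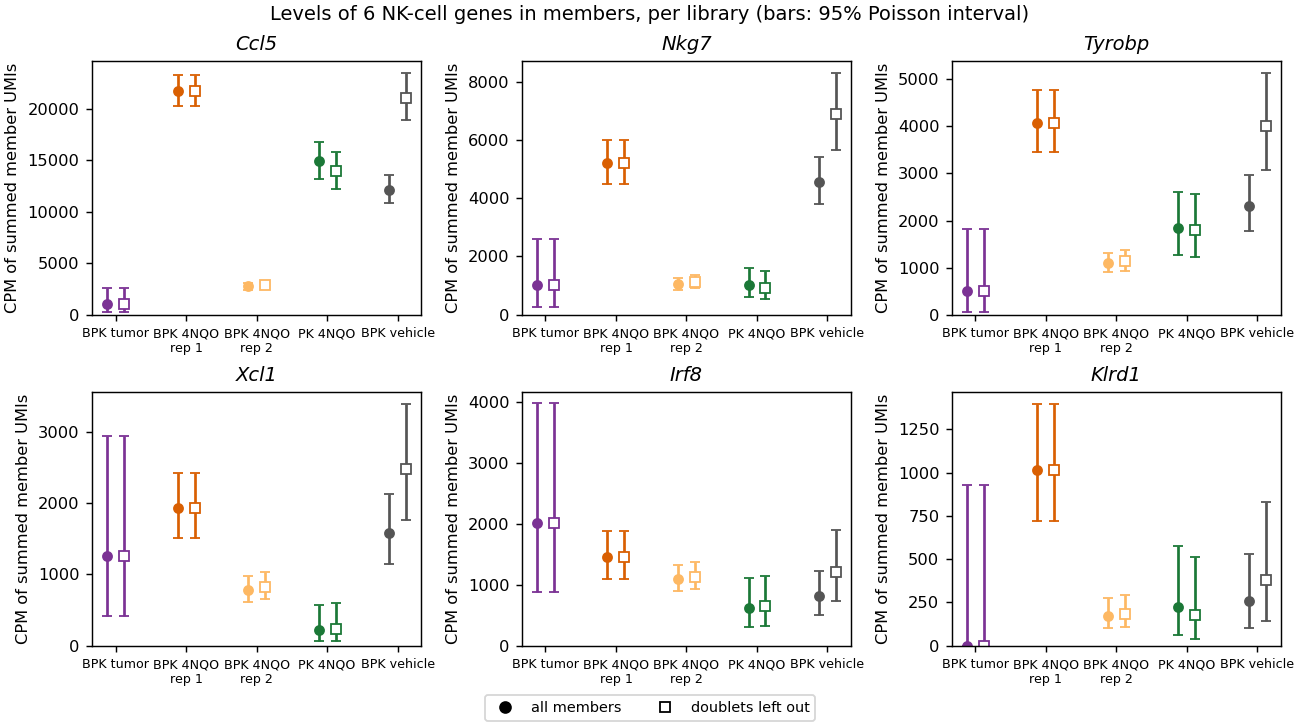
Level of 6 NK-cell genes in CPM of the UMIs summed over the members of each library, with exact Poisson 95% intervals of counting error. Filled circles are all members and open squares leave out 5 barcodes called doublets; Ccl5 is at 21749 CPM in BPK 4NQO replicate 1 and 2749 CPM in replicate 2, and BPK vehicle moves to 21076 CPM without its 3 doublets.

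A few deep barcodes moved these levels. Leaving out the 3 vehicle members called doublets put BPK vehicle at 21076 CPM for Ccl5, 6877 for Nkg7 and 11716 for Gzma. Leaving out the deepest PK 4NQO member put that library at 32836 CPM for Ccl5, 2222 for Nkg7 and 4814 for Gzma. With at least 2 marker UMIs per member, PK 4NQO was at 53859 CPM for Ccl5, 3508 for Nkg7 and 7842 for Gzma, against 12921, 4660 and 7283 CPM in BPK vehicle, so the place of PK 4NQO among the libraries changed with the members kept. The gap between the BPK 4NQO replicates remained with at least 2 marker UMIs per member, at 23569 against 2420 CPM for Ccl5 and 5637 against 1264 CPM for Nkg7. T cells of replicate 2 were also below those of replicate 1, at 3527 against 6452 CPM for Ccl5 and 1067 against 2326 CPM for Nkg7. A gap in the same direction was thus also present in T cells, where it was smaller. Its source was not tested.

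Beside T cells of the same library, the members differed in genes that the rule did not use, though the rule chose both sets of barcodes and the values are a description. In BPK vehicle 10 of the 20 T cells also held a marker gene of the rule. Dendritic cell markers summed to 10583 CPM in those 20 T cells, against 265 and 680 CPM in T cells of BPK 4NQO and 142 CPM in PK 4NQO. The vehicle T cells are thus a mixed set. Higher or lower here means the order of both levels in each library. Many of these genes had few or no UMIs in a library, with a gap below what a count of 0 allows, and no test was made. Of 25 NK receptor and adaptor genes, which include Il2rb of the rule, 9 were higher in members than in T cells in all 4 gland libraries: Klrk1, Klrb1a, Klrb1b, Klrb1f, Klra4, Klra7, Klra8, Fcgr3 and Tyrobp. Klrc1 (an inhibitory NKG2 receptor) was lower in all 4, at 107 and 70.2 CPM in members of BPK 4NQO, 112 CPM in PK 4NQO and 110 CPM in BPK vehicle, against 186, 170, 267 and 355 CPM in T cells. Irf8, a transcription factor of myeloid cells that NK cells also use, was the only gene of 17 lymphoid transcription factors that was higher in all 4. It was at 1446 and 1093 CPM in members of BPK 4NQO, 616 CPM in PK 4NQO and 808 CPM in BPK vehicle, against 51.3, 56.5, 15.7 and 88.7 CPM in T cells of the same libraries. The transcription factors Rora, Bcl11b and Ikzf2 were lower in members in all 4. Of 15 cytotoxic effector genes 2 were higher in members in all 4 and 3 were lower. Gzmb was lower in all 4, while Nkg7 and Xcl1 were each higher in 2 gland libraries and lower in 2. For these 2 genes the order depended on the members kept. With at least 2 marker UMIs Nkg7 was at 3508 CPM in PK 4NQO and 1264 CPM in replicate 2, against 2470 and 1067 CPM in T cells. Without the deepest PK 4NQO member, described below, Nkg7 was at 2222 CPM there. Xcl1 was then at 494 CPM, against 456 CPM in T cells.

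The list of circulating lymphocyte and NK maturation genes summed to 2705 and 1605 CPM in members of BPK 4NQO, 2409 CPM in PK 4NQO and 1946 CPM in BPK vehicle, against 1595, 1868, 1306 and 1182 CPM in T cells. Members were higher in 3 libraries and lower in BPK 4NQO replicate 2. Klf2 (which keeps lymphocytes in circulation) was at 1661 and 401 CPM in members of BPK 4NQO, 280 CPM in PK 4NQO and 514 CPM in BPK vehicle, against 134, 112, 142 and 384 CPM in T cells, and so was higher in all 4. Cma1, mast cell chymase, which is also on the mast cell and basophil list, had UMIs in members of all 4 and was at 0 in T cells, with 10.0 CPM in replicate 2. The 14 residence and ILC1 genes summed to 3348 and 2839 CPM in members of BPK 4NQO, 2409 CPM in PK 4NQO and 3451 CPM in BPK vehicle, against 3388, 4469, 4185 and 5262 CPM in T cells, with hardly a gap in replicate 1. Of them none was higher in all 4, and Cxcr6, a chemokine receptor of resident lymphocytes, was lower. Cxcr6 was at 0 and 20.1 CPM in members of BPK 4NQO, 56.0 CPM in PK 4NQO and 73.4 CPM in BPK vehicle, against 340, 317, 645 and 177 CPM in T cells. Itga1 and Zfp683, of the residence list, had 0 UMIs in the members.

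Checkpoint receptors were sparse in the members. The 8 checkpoint genes summed to 80.4 and 221 CPM in members of BPK 4NQO, 56.0 CPM in PK 4NQO and 110 CPM in BPK vehicle, against 794, 1123, 724 and 384 CPM in T cells. Replicate 2 held 22 of these UMIs in 15 of 77 members (19.5%), and Ctla4 was at 90.3 CPM there, against 555 CPM in T cells. Pdcd1 (PD-1) had 1 UMI over all members, in BPK 4NQO replicate 2, and stood at 88.7 to 299 CPM in T cells of the gland libraries. Havcr2 had 0 UMIs in the members. Of 22 ILC2 genes Lmo4 alone was higher in all 4, and 6 were lower, including Icos. Of 20 interferon-stimulated genes none was higher in all 4, and Ifi27l2a was lower, at 53.6 and 632 CPM in members of BPK 4NQO, 616 CPM in PK 4NQO and 0 in BPK vehicle, against 1682, 2389, 1542 and 325 CPM in T cells.

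**Figure D4:**
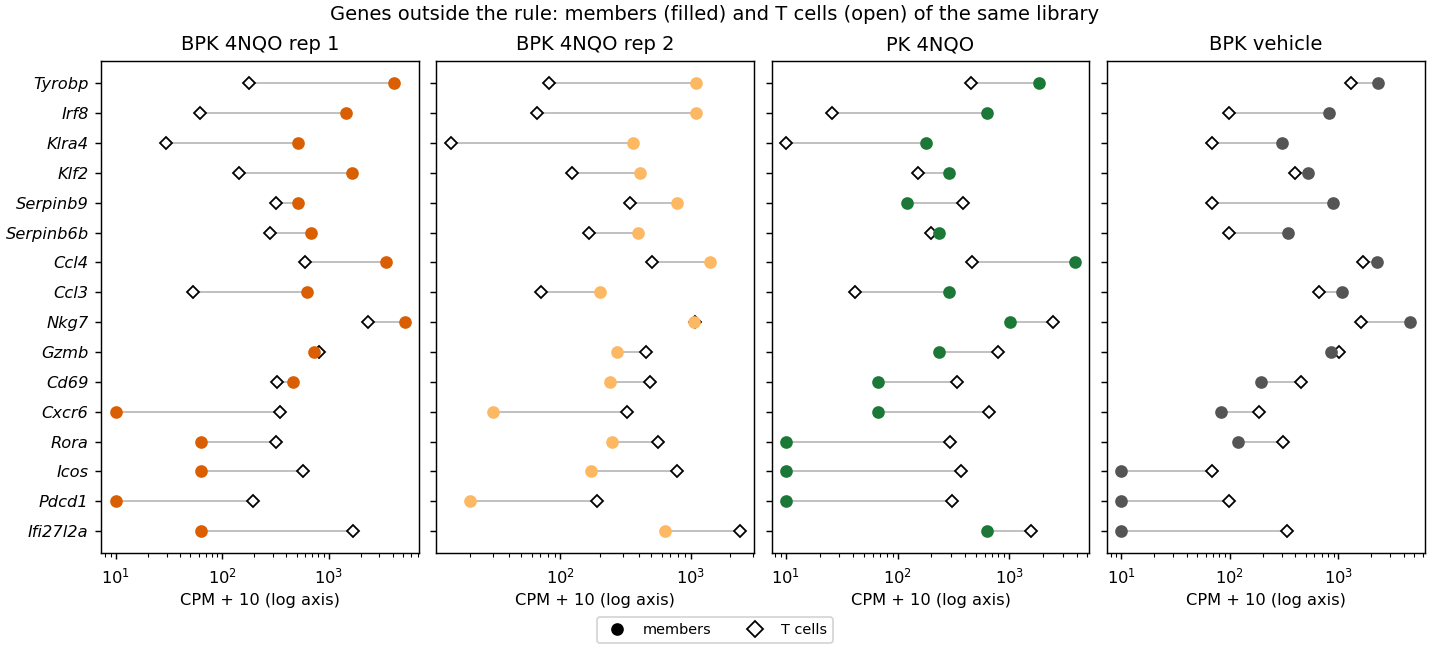
Level of 16 genes that the rule does not use in members (filled circles) and T cells (open diamonds) of each gland library, as CPM + 10 on a log axis. Irf8, Tyrobp and Klra4 lie to the right in members in all 4 libraries, and Cxcr6, Pdcd1 and Icos lie to the left.

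The 20 proliferation genes had a UMI in 16 of 32 and 55 of 77 members of BPK 4NQO, 6 of 9 of PK 4NQO and 16 of 19 of BPK vehicle. They summed to 2116 and 3942 CPM in BPK 4NQO, 2241 CPM in PK 4NQO and 4993 CPM in BPK vehicle. Mki67, a proliferation gene, had 47 UMIs in 7 members of BPK 4NQO replicate 2, against 3 UMIs in 3 members of replicate 1 and 1 UMI each in PK 4NQO and BPK vehicle. Rsad2, an antiviral interferon-stimulated gene, had 30 UMIs in 8 members of replicate 2, of which 23 were in 1 barcode, and 0 elsewhere.

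For gene tests, UMIs were summed over the members of each library and compared with edgeR's quasi-likelihood test, with calls at a Benjamini-Hochberg adjusted p under 0.05 over all genes. The planned minimum of 20 members per library was met by neither BPK vehicle (19) nor PK 4NQO (9). It was lowered to 5 after these counts were seen, and the tumor with 2 members was not tested. In BPK 4NQO against BPK vehicle, 2 of 777 genes were called, or 0.257%, both higher and neither an NK gene. In BPK 4NQO against PK 4NQO, 13 of 777 were called, or 1.67%, with 1 higher (0.129%) and 12 lower (1.54%). DESeq2 on the same counts called 0 genes against BPK vehicle and 1, or 0.129%, against PK 4NQO. At an unadjusted p under 0.05 the counts were 18 and 81. The comparisons share the BPK 4NQO libraries, and those alone give the estimate of spread.

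The genes called against BPK vehicle were Cxcl2 (a neutrophil chemokine) and Lars2 (the mitochondrial leucyl-tRNA synthetase), named here after their values were seen. Cxcl2 had 0 UMIs in BPK 4NQO replicate 1 and 165 in replicate 2, from 12 members, against 0 in BPK vehicle (edgeR adjusted p 0.0198). Lars2 had 0 UMIs in replicate 1 and 136 in 58 members of replicate 2, against 0 in BPK vehicle (edgeR adjusted p 0.0351). T cells also held Lars2 at 1139 CPM in replicate 2, against 0 in replicate 1 and BPK vehicle and 15.7 CPM in PK 4NQO. The Cxcl2 and Lars2 calls therefore both rest on replicate 2, the library that stands apart. Of the Cxcl2 UMIs 152 came from 2 barcodes.

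The NK gene lists gave no call in either comparison. Against BPK vehicle 9 of 25 NK receptor genes passed the filter on low counts and were tested, with a median log2 fold change of 0.33, beside 0.17 over all 777 genes. The 7 of 15 cytotoxic effector genes that passed had a median of -0.01, and Nkg7 had a log2 fold change of -0.39 ± 0.96 (SE). Against PK 4NQO the same 9 receptor genes had a median of 1.43, with all 9 above 0, and the 7 effector genes 1.34, again beside 0.17 over all genes. For Xcl1 the log2 fold change against PK 4NQO was 2.67 ± 1.12 (SE, edgeR adjusted p 0.333). Most of the UMIs of the PK 4NQO members came from 1 barcode, described next, which held no Nkg7, Ccl5 or Gzma. A miss at this depth does not show that the groups were alike.

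The deepest PK 4NQO member held 9748 of the 17849 member UMIs of that library (54.6%). It passed the rule on 1 UMI of Il1rl1 and held 5 UMIs of Ptprc. It held 155 UMIs of Ccl17 (a dendritic cell chemokine), 210 of Cd74, 91 of H2-Ab1 and 60 of H2-Aa (MHC class II chains), 43 of Lyz2 and 40 of Wfdc17, and none of Nkg7, Ccl5 or Gzma. It did hold UMIs of Tyrobp, an adaptor that myeloid cells share, of which PK 4NQO had 33 with this barcode and 23 without it. Ccl17, Cd74, the MHC class II chains and Lyz2 are genes of dendritic cells and macrophages, and this barcode goes against the label. A second PK 4NQO member, with 2750 UMIs, also goes against it. It passed the rule on 1 UMI of Gzma and held 130 of the 158 Cst3 UMIs of that library. Together with the deepest member it held 290 of 294 Cd74 UMIs and 133 of 134 H2-Ab1 UMIs.

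The genes called lower in BPK 4NQO than in PK 4NQO were, by the naming rule, Ccl17, Wfdc17, Ccl9, Lpl, Ccl6, Cd14, Cst3, H2-Ab1, H2-Aa and Atox1, beside Lyz2 and Rps27l. Ccl17 had 0 UMIs in both BPK 4NQO libraries and 155 in PK 4NQO, all in the deepest barcode (edgeR adjusted p 7.04e-12). Ccl9, a myeloid chemokine, had 1 and 4 UMIs in BPK 4NQO and 33 in PK 4NQO, of which 32 were in that barcode (edgeR adjusted p 0.000252). Cst3 (cystatin C, abundant in dendritic cells) differs, with 13 and 83 UMIs in BPK 4NQO and 158 in PK 4NQO, of which 27 were in the deepest barcode and 130 in another (edgeR adjusted p 0.0180). With the deepest barcode left out, 1 gene was called in place of 13. The log2 fold change was then -2.82 for H2-Ab1 and -2.80 for H2-Aa, from -3.35 and -3.21 with that barcode, and neither was called. For Cst3, which was still called, it was -4.43, from -3.59. In PK 4NQO 2 barcodes held 133 of 134 H2-Ab1 UMIs and 91 of 92 H2-Aa UMIs. The gene called higher was Lars2, which had 0 UMIs in PK 4NQO (edgeR adjusted p 0.0356).

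**Figure D5:**
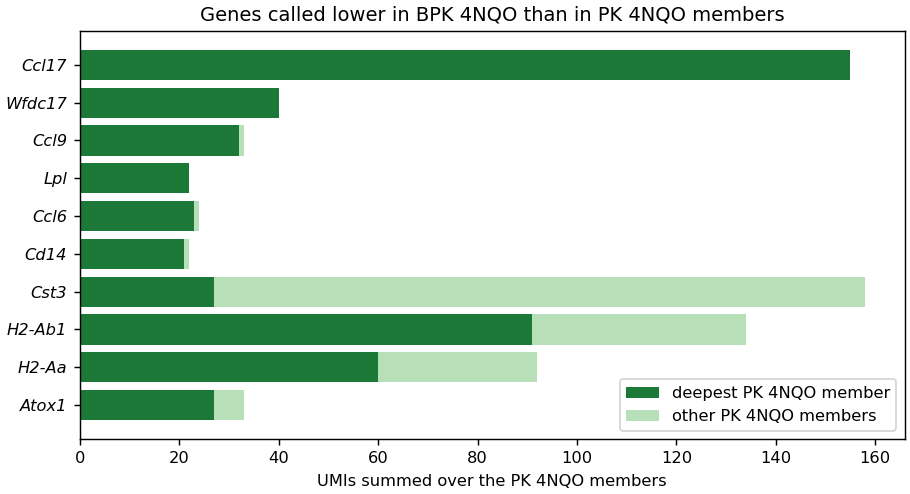
UMIs of the 10 genes named as lower in BPK 4NQO than in PK 4NQO members, summed over the 9 PK 4NQO members, in UMIs. Dark bars are the deepest member and light bars the other members; all 155 Ccl17 UMIs lie in the deepest one.

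Markers of other cell types among the members bear on the same point. Of 139 members 37 held at least 2 UMIs of another cell type's marker list: 2 in the BPK tumor, 6 and 22 in BPK 4NQO, 3 in PK 4NQO and 4 in BPK vehicle. Dendritic cell markers (10 genes, including H2-Ab1 and Cd74) summed to 1262 CPM in the BPK tumor, 884 and 3752 CPM in BPK 4NQO, 24147 CPM in PK 4NQO and 587 CPM in BPK vehicle. Macrophage markers outside the rule (7 genes) summed to 505, 53.6, 1063, 3137 and 147 CPM, and all 5 B cell genes measured were at 0 in every library. The T cell coreceptor Cd4 was at 0 in all members, and Cd8a had 4 UMIs, in BPK 4NQO replicate 2. The 5 T cell genes outside the rule summed to 252, 80.4, 291, 56.0 and 184 CPM in the same library order. In T cells they summed to 1193, 1196, 1503, 1164 and 443 CPM. In replicate 2 they had 29 UMIs in 18 of 77 members (23.4%), with Cd28 at 171 CPM and Cd5 at 80.2 CPM. With the 37 members left out edgeR called no gene in either comparison. Of 638 genes tested, 23 against BPK vehicle and 37 against PK 4NQO had an unadjusted p under 0.05.

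The 2 members of the BPK tumor allow no account of NK cells in the tumor. One held Ncr1 and Eomes, and the other held Il1rl1 together with all 39 Cxcl2 UMIs of the pair. Gzma, Gzmb, Prf1, Klrd1 and Klra4 were at 0 of 3963 UMIs.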

How the data were processed

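The authors deposited UMI counts per gene and barcode for 27998 genes in 5 libraries. Per the file headers Cell Ranger 5.0.1 made 4 of the count tables and Cell Ranger 3.0.2 that of PK 4NQO, against mm10 per the submitters' processing notes. Libraries used 10x 3' chemistry, version 2 per the labels' protocols. How cells were called, and with which annotation release, is not given in the sources used here. Because its stated unit is doubtful, no dose is printed. Total depth ran from 27383717 to 64169843 UMIs per library.

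Of 34526 barcodes, 33551 were kept (Python 3.11.15, numpy 2.4.6, scipy 1.17.1, pandas 2.3.3). Doublets were scored with scrublet in scanpy 1.11.5 (top 0.8% per 1000 barcodes) and left out only as an alternative. Member UMIs were summed per library and scaled to 1e+06 (CPM), with exact Poisson 95% intervals. Tests used edgeR 4.0.16 (limma 3.58.1, R 4.3.3) with filterByExpr, TMM factors, the quasi-likelihood test and Benjamini-Hochberg adjustment, on the gland libraries in 1 model with 1 group per genotype and treatment. DESeq2 1.42.0 was an alternative. On simulated BPK 4NQO against BPK vehicle counts, 33 of 141 tested genes changed 4-fold and 131 of 135 changed 16-fold were recovered, with 0 and 7 false calls. The simulation gave all genes the same fixed spread, not that of the BPK 4NQO pair, and no difference between replicates. It therefore does not give the recovery in the real counts. Named genes are up to 10 per side with the largest called fold change, on the same side of the other group in both BPK 4NQO libraries, leaving out predicted models, mitochondrial and ribosomal protein genes. The members and gene lists were chosen with earlier results of these data known. Gene annotation was GENCODE M21, and promoters RefSeq GRCm38.p6. A few genes of the lists are not reported here.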

Additional observations from a re-analysis of the deposited data

How the results depend on the processing

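The share ratio of BPK 4NQO over BPK vehicle was 1.77 on the log2 scale as reported. It reversed to -0.39 with Ptprc barcodes as the denominator and moved to 2.89 after thinning to 1000 UMIs, where 16 and 43 members remained in BPK 4NQO and 5 in BPK vehicle. Leaving out a replicate gave 1.08 to 2.45. Over PK 4NQO the ratio of 2.51 reversed to -0.24 with the Ptprc denominator and ran from 1.82 to 3.19 without a replicate. For the tumor it ran from -3.66 to -2.29 without a replicate, and no ratio could be had after thinning or without barcodes of other types, which left 0 tumor members. The other share alternatives moved the ratios by less than the spread between the BPK 4NQO replicates.

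The count of called genes against BPK vehicle was 2. It was 0 with DESeq2, without a filter on low counts, with doublets left out, with at least 2 marker UMIs, with other-type members left out and with Il1rl1 members left out, and 4 with RLE size factors. At an unadjusted p under 0.05 these settings gave 6, 101, 24, 10, 23, 22 and 23 genes, in the same order. Against PK 4NQO the count was 13. It was 1 with DESeq2, 4 without the filter and 1 without the deepest PK 4NQO barcode. It was 0 with at least 2 marker UMIs, with other-type members left out or with Il1rl1 members left out. In these last settings 21 of 740, 37 of 638 and 38 of 746 genes tested had an unadjusted p under 0.05. The alternative without the deepest barcode and the one without Gm42418 were chosen after seeing the data. Without a replicate no residual degrees of freedom remain, so the counts could not be tested.

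Some fold changes of genes called against PK 4NQO reversed. With at least 2 marker UMIs the log2 fold change was 2.28 for Cst3, 5.01 for Rps27l, 5.18 for Atox1, 6.48 for H2-Ab1 and 6.23 for H2-Aa. With other-type members left out it was 2.51 for Cst3, 5.02 for Atox1 and 6.38 for H2-Ab1. For Rps27l it was 0.31 with Il1rl1 members left out and 0.44 without the deepest PK 4NQO barcode. The first 2 settings leave 6 of 9 PK 4NQO members, without the deepest one and without the one behind most Cst3 UMIs. Without the deepest barcode alone the values for Cst3, H2-Ab1, H2-Aa and Atox1 were -4.43, -2.82, -2.80 and -1.83, with no reversal. Unfiltered low counts shift the median of all genes to 1.67 and 1.94. No paired analysis was possible because BPK vehicle, PK 4NQO and the BPK tumor have 1 library each, so the groups share fewer than 2 replicate numbers.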

Other observations

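Of the 618 barcodes counted as T cells, 169 also carried a marker gene of the rule and were kept out of the members for their CD3 UMIs. They numbered 5 in the BPK tumor, 30 and 114 in BPK 4NQO replicates 1 and 2, 10 in PK 4NQO and 10 in BPK vehicle. Nkg7 was detected in 128 of them and Ccl5 in 127, Eomes in 76, Klrk1 in 58, Cd8a (the killer T cell coreceptor) in 45 and Cd4 in 4. Klra4, the Ly49 receptor gene among the leading genes of the members, was detected in 5, and Irf8 in 25. Of the 10 in BPK vehicle, Ncr1 was found in 6, Tyrobp in 7, Klrd1 in 6, Cd8a in 1 and Cd4 in 0. The CD3 label of these 10 is therefore uncertain. Their Gzma level was 6308 CPM, near the 6828 CPM of the members, against 332 and 185 CPM in the BPK 4NQO replicates. In PK 4NQO it was 1056 CPM. Of the 10 in PK 4NQO, Tyrobp was found in 5, Ncr1, Klrd1 and Cd8a in 3 each and Cd4 in 0. Their CD3 label is uncertain as well.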
